A study of Homo sapiens with 16 samples.

Results

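The interleukin-6 (IL-6) family was followed through the RNA of mesenchymal stem cells (MSCs) as 10 genes taken by name: the cytokines IL6, IL11, LIF and CLCF1, the receptor chains IL6R, IL6ST, LIFR, OSMR and IL11RA, and the feedback inhibitor SOCS3. All 10 were found by symbol among the 60649 genes of the deposited table, and all 10 passed the filter on low counts, which kept 19103 genes. The cells were ASC52telo, a human adipose-derived MSC line immortalized with telomerase, labelled wild type, so every group carries that modification and stands for 1 line. Poly(A) RNA of 16 libraries was sequenced as 1 mixture, 4 biological replicates from each of 4 groups. In the names of the groups, MmC+ cells had received mitomycin C, a DNA-alkylating agent used to bring on senescence, at 1.5 µg/mL for 18 h, and MmC- cells had not. GDF11+ cells had received the recombinant cytokine growth differentiation factor 11 at 10 ng/mL in the course of the next 10 days, and GDF11- cells had not. MmC-/GDF11- and MmC-/GDF11+ are the young MSCs, and MmC+/GDF11- and MmC+/GDF11+ the senescent ones.

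Cytokines of the IL-6 family signal through receptor complexes that share the chain gp130, the product of IL6ST. IL-6 and IL-11 first bind their own alpha receptors, encoded by IL6R and IL11RA, which then pair gp130 chains, while LIF brings gp130 together with the LIF receptor. The complexes activate Janus kinases and the transcription factor STAT3, which in turn induces SOCS3, an inhibitor that binds gp130 and damps the signal. IL6 is among the best known secreted products of senescent cells.

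The promoters of IL6 and IL11 are shown because these genes rose steeply after MmC in the data below. RefSeq (GRCh38.p14) gave 250-base windows ahead of a transcript start for 8 of the 10 members, but not for LIF and CLCF1, 12 windows in all. The IL6 sequence, chr7:22726950-22727146 on the plus strand, was cut short where an annotated exon begins, and the IL11 sequence is chr19:55370464-55370713 on the minus strand. Capitals mark matches to searched motifs, in IL6 first to the C/EBP motif and then to the NF-kappaB motif, and in IL11 to the AP-1 motif.
IL6: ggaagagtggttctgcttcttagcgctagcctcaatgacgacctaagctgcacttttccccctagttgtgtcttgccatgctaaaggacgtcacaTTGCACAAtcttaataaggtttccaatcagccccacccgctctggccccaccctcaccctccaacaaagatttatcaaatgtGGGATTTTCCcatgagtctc
IL11: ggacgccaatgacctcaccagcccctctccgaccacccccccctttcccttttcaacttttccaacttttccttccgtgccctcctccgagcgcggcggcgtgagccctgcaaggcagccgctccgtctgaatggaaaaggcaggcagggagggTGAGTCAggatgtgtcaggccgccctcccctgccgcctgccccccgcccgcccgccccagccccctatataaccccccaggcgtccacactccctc

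In IL6 the C/EBP match lay 155 to 148 bases and the NF-kappaB match 73 to 64 bases before the transcript start. In IL11 the AP-1 match lay 96 to 90 bases before it. Motifs were searched on both strands as TTGCNNAA for C/EBP, TGANTCA for AP-1 and TTCNNNGAA for STAT, and for NF-kappaB by its standard 10-base form. The marked matches do not overlap one another. Among all 34788 RefSeq windows of this length, 9.95% held the NF-kappaB motif, 9.05% C/EBP, 6.59% AP-1 and 6.57% STAT. LIFR held STAT matches in its windows, OSMR and LIFR C/EBP matches, and IL6ST and IL11RA NF-kappaB matches, while none of the 4 motifs was found in the windows of SOCS3 and IL6R. The SOCS3 windows were chr17:78360926-78361175 and chr17:78359668-78359917, while GENCODE starts this minus-strand gene at 78360077. The bases just ahead of that start were not searched. A match describes the letters only, since binding was not measured here.

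Total counts per library lay between 71275337 and 144204979. Levels are given as CPM, the counts scaled to a common library total with TMM factors, and levels of different genes are set side by side only as CPM per kilobase of annotated exon. The 5 MSC surface markers NT5E, THY1, ENG, CD44 and ITGB1 summed to between 4730 and 6430 CPM per library. The 5 monocyte and macrophage markers summed to 1.9 to 2.98 CPM in young and 4.36 to 5.85 CPM in senescent MSCs, most of it CD14, and CD163 was higher after MmC (log2 fold change 4.31, adjusted p = 9.53e-06 by edgeR). Endothelial markers summed to 47.5 to 82.4 CPM in young and 54.4 to 111 CPM in senescent MSCs, most of it TEK. Adipocyte markers summed to at most 2.53 CPM and blood cell markers to at most 0.478 CPM, with ADIPOQ and CD3E at 0 counts in MmC-/GDF11-. The part of these cell type markers in the results below was not tested.

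IL6 (ENSG00000136244.12, chr7:22725884-22732002, plus strand of hg38), the founding cytokine of the family, had the largest increase after MmC among the members. In replicates 1 to 4 it had 6.17, 3.01, 2.94 and 3.72 CPM in MmC-/GDF11- and 146, 905, 840 and 741 CPM in MmC+/GDF11-. With GDF11 it had 6.73, 3.69, 2.95 and 2.48 CPM in young and 134, 759, 911 and 663 CPM in senescent MSCs. The senescent libraries did not overlap the young ones, and replicate 1 was the lowest of both senescent groups and the highest of both young groups. The log2 fold change was 7.38 ± 0.724 (SE) without GDF11 and 7.29 ± 0.722 with GDF11 (n = 4 against 4), with adjusted p = 1.96e-06 and 2.16e-06 in edgeR's quasi-likelihood test. Taken by replicate number, the increase was 23.6-fold in replicate 1 and between 199- and 301-fold in the others without GDF11, and 20-fold against 206- to 309-fold with GDF11. Without replicate 1 of every group the log2 fold change was 8.00 in both comparisons.

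LIF (ENSG00000128342.5, chr22:30240453-30246759, minus strand), the leukemia inhibitory factor, behaved in a like way. Its young libraries were tightly grouped, at 4.51, 5.02, 4.67 and 5.86 CPM without and 4.57, 4.65, 4.5 and 5.28 CPM with GDF11. Its senescent libraries had 57.8, 580, 515 and 526 CPM without and 53.8, 405, 557 and 472 CPM with GDF11. Replicate 1 again stood apart, at 10.7% and 11.3% of the mean of the other 3 libraries of its group, but still far above every young library. Its log2 fold change was 6.39 ± 0.743 without GDF11 (adjusted p = 9.61e-06) and 6.29 ± 0.741 with GDF11 (adjusted p = 1.06e-05).

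IL11 (ENSG00000095752.7, chr19:55364382-55370463, minus strand), a cytokine of stromal cells, was low in young MSCs. The counts behind it were 69 to 139 reads per MmC-/GDF11- library, or 0.897, 1.27, 1.18 and 1.34 CPM, and it had 0.987, 1.18, 0.933 and 1.15 CPM in MmC-/GDF11+. In MmC+/GDF11- it had 1.98, 90.7, 54.7 and 25.7 CPM, and in MmC+/GDF11+ 1.94, 45.1, 60.0 and 21.9 CPM. The groups did not overlap, but in replicate 1 the increase was only 2.2-fold without and 1.97-fold with GDF11, against 19.2- to 71.3-fold and 19- to 64.3-fold in the other replicates. In the fit the log2 fold change was 5.20 ± 0.998 (adjusted p = 0.000672) without GDF11 and 4.92 ± 0.993 (adjusted p = 0.00097) with GDF11, the widest errors among the members. It depended on the estimate, being 4.23 and 4.22 under limma-voom, where the adjusted p was 0.0342 and 0.0408. Without GDF11 the change was 4.61 with the replicate number as a block, and 4.55 without replicate 2 of MmC+/GDF11-.

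CLCF1 (ENSG00000175505.11, chr11:67364168-67374177, minus strand), the cardiotrophin-like cytokine that signals through the receptor of ciliary neurotrophic factor, moved far less. It had 10.2, 11.6, 11.9 and 12.4 CPM in MmC-/GDF11- and 10.7, 22.1, 20.5 and 22.2 CPM in MmC+/GDF11-. The values with GDF11 were 8.84, 9.70, 11.9 and 13.7 CPM in young and 10.1, 18.3, 22.0 and 21.9 CPM in senescent MSCs. In replicates 2 to 4 every senescent library lay above every young one, while replicate 1 lay among the young libraries. The log2 fold change was 0.71 ± 0.243 (adjusted p = 0.0253) without GDF11 and 0.71 ± 0.244 (adjusted p = 0.0254) with GDF11. Without replicate 1 of every group it was 0.85 (adjusted p = 4.07e-05) and 0.82 (5.98e-05). The call without GDF11 was lost under limma-voom (0.0532) and when single libraries were left out, namely replicate 1 of MmC-/GDF11- (0.0556) or replicate 2, 3 or 4 of MmC+/GDF11- (0.0643, 0.0584 and 0.0669). The call with GDF11 was lost without replicate 1 or 2 of MmC-/GDF11+ (0.0649 and 0.0644) or replicate 3 or 4 of MmC+/GDF11+ (0.0706 and 0.0693). With no filter on low counts the adjusted p was 0.0710 without and 0.0657 with GDF11. With the replicate number as a block it was 0.00102 and 0.000882.

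**Figure D1:**
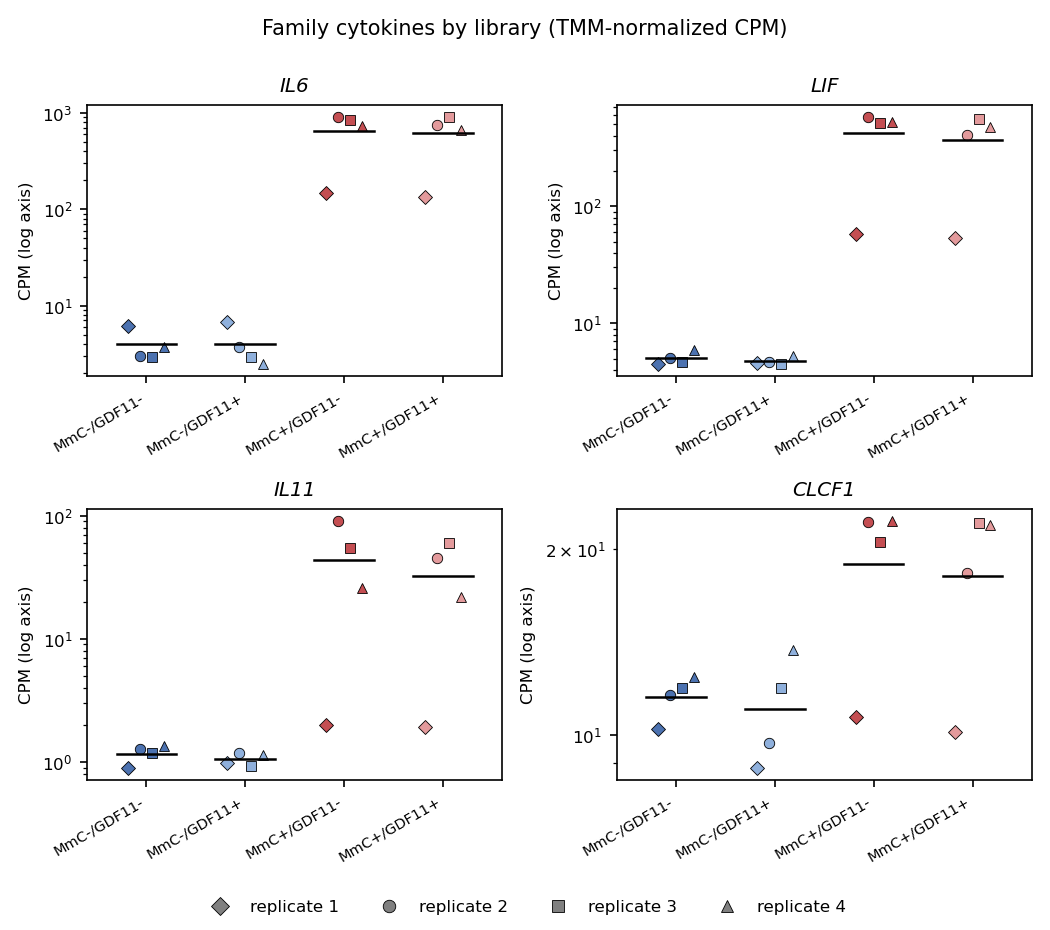
CPM of the 4 cytokine genes in each of the 16 libraries on log axes, with 1 marker shape per replicate number and a bar at the mean of each group. In IL6, LIF and IL11 all senescent libraries lie above all young ones, and replicate 1 is the lowest senescent library of both groups in all 4 genes.

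Scaled to exon length, CLCF1 was the most abundant of the 4 cytokine RNAs in young MSCs, at 6.27 ± 0.519 CPM per kilobase (SD, n = 4) in MmC-/GDF11-, followed by LIF at 1.30 ± 0.156, IL6 at 0.917 ± 0.351 and IL11 at 0.438 ± 0.0729. LIF and IL6, neighbours in this order, did not differ beyond their spread. The scale counts all annotated exon bases of a gene, 4321 for IL6 and 3871 for LIF. The lengths of the transcripts made were not measured, so the order of genes may depend on this choice. In MmC+/GDF11- the order was IL6 at 152 ± 80.6, LIF at 108 ± 62.8, IL11 at 16.2 ± 14.3 and CLCF1 at 10.3 ± 2.99 CPM per kilobase. There the spreads of IL6 and LIF over libraries overlapped, as did those of IL11 and CLCF1. Within each library, though, IL6 lay above LIF, at 33.7, 209, 194 and 172 against 14.9, 150, 133 and 136 CPM per kilobase. IL11 lay above CLCF1 in replicates 2 and 3 and below it in replicates 1 and 4. With GDF11 the same order of means was seen, at 143 ± 78.1, 96.1 ± 57.1, 12.0 ± 9.54 and 9.83 ± 3.05 CPM per kilobase. The order of both pairs within each replicate was also the same.

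The shared chain IL6ST (ENSG00000134352.20, chr5:55935095-55995022, minus strand) was the most abundant receptor RNA of the family, at 39.9 ± 6.08 CPM per kilobase in MmC-/GDF11-, and was slightly higher after MmC. It had 510, 372, 531 and 510 CPM in MmC-/GDF11- and 763, 457, 644 and 834 CPM in MmC+/GDF11-, where replicate 2 of the senescent cells lay within the young range. With GDF11 the young libraries had 533, 442, 522 and 537 CPM and the senescent ones 721, 588, 674 and 841 CPM, with no overlap. After MmC the log2 fold change was 0.49 ± 0.169 (adjusted p = 0.0271) without and 0.47 ± 0.169 (adjusted p = 0.0306) with GDF11. Without GDF11 the call was lost when replicate 1 (0.0602) or 4 (0.0915) of MmC+/GDF11- or replicate 2 of MmC-/GDF11- (0.0826) was left out, and in a fit of only the 8 libraries compared (0.0555). With GDF11 it was lost without replicate 2 (0.0808) or 3 (0.0502) of MmC-/GDF11+ or replicate 4 of MmC+/GDF11+ (0.0888). Without replicate 1 of every group neither comparison passed, at 0.071 and 0.0519. With the replicate number as a block both passed, at 0.000599 and 0.000628. Of the exon sequence of IL6ST, 15.0% of words of 31 bases recur elsewhere on the primary chromosomes, the highest share among the members, and how the counting treated such reads is not given in the sources used here.

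OSMR (ENSG00000145623.13, chr5:38845858-38945596, plus strand), the oncostatin M receptor chain, followed IL6ST in size and direction. It had 222, 192, 240 and 284 CPM in MmC-/GDF11- and 389, 252, 271 and 366 CPM in MmC+/GDF11-, and 210, 199, 219 and 277 against 355, 263, 266 and 377 CPM with GDF11. The groups overlapped in both comparisons, through the high replicate 4 of the young cells. In edgeR the log2 fold change was 0.44 ± 0.171 (adjusted p = 0.044) without and 0.48 ± 0.171 (adjusted p = 0.0309) with GDF11. Without GDF11 the call did not survive the removal of replicate 1 (0.0776), 2 (0.119) or 3 (0.0694) of MmC-/GDF11-, or of replicate 1 (0.114) or 4 (0.11) of MmC+/GDF11-. With GDF11 it did not survive that of replicate 1 (0.0635), 2 (0.0796) or 3 (0.0635) of MmC-/GDF11+, or of replicate 1 (0.0644) or 4 (0.0899) of MmC+/GDF11+. Without replicate 1 of every group the adjusted p was 0.185 and 0.102. It also missed the threshold without GDF11 with no filter on low counts (0.0535) and in the 8 libraries alone (0.0514). With the replicate number as a block the adjusted p without GDF11 was 0.00137, and the call with GDF11 stood as well.

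LIFR (ENSG00000113594.10, chr5:38474668-38608354, minus strand), the chain that binds LIF, went the other way. It had 57.9, 41.9, 71.6 and 67.7 CPM in MmC-/GDF11- and 56.7, 32.0, 40 and 52.8 CPM in MmC+/GDF11-, with overlap. With GDF11 the young libraries had 62.8, 61.6, 63.9 and 69.9 CPM and the senescent ones 52.4, 37.4, 40.3 and 54.9 CPM, without overlap. The log2 fold change was -0.40 ± 0.185 (adjusted p = 0.0923, not called) without GDF11 and -0.48 ± 0.186 (adjusted p = 0.0436, lower) with GDF11. With the replicate number as a block the fall without GDF11 passed as well (-0.41, adjusted p = 0.0129). It also passed when replicate 1 of every group was left out (-0.54, 0.0474), and when only that of MmC+/GDF11- (0.0375) or only replicate 2 of MmC-/GDF11- (0.0273) was. The call with GDF11 was lost under RLE scaling (0.0525), with no filter on low counts (0.0792) and when any 1 of 9 libraries was left out. These were replicates 1 and 4 of MmC-/GDF11- (0.0561 and 0.0519), all 4 replicates of MmC-/GDF11+ (0.0696, 0.0683, 0.0777 and 0.102), replicate 4 of MmC+/GDF11- (0.0509) and replicates 2 and 3 of MmC+/GDF11+ (0.138 and 0.124).

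IL11RA (ENSG00000137070.18, chr9:34652162-34661902, plus strand), the alpha receptor of IL-11, fell after MmC while its ligand rose. It had 20.3, 23.9, 17.1 and 16.5 CPM in MmC-/GDF11- and 8.5, 5.79, 5.44 and 5.62 CPM in MmC+/GDF11-. With GDF11 it had 18.6, 23.0, 20.7 and 16.7 CPM in young and 8.82, 5.47, 5.18 and 5.71 CPM in senescent MSCs. No senescent library reached a young one, and replicate 1 was the highest of both senescent groups. In edgeR the log2 fold change was -1.62 ± 0.191 (adjusted p = 7.48e-06) without and -1.65 ± 0.191 (adjusted p = 6.26e-06) with GDF11. Replicate 1, the senescent library with the highest IL11RA in each group, was also the one with the lowest IL11. Over all genes, however, replicate 1 was the highest library in 35.1% and 37.3% and the lowest in 35.2% and 36.9% in these groups. A link between the 2 genes was not tested. In the annotation 1706 bases, 32.5% of the exon length of IL11RA, are shared with ENSG00000258728 on the same strand, which had at most 0.013 CPM. How reads that fall on both genes were counted is not given in the sources used here. If they were dropped, both genes would be undercounted there.

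IL6R (ENSG00000160712.13, chr1:154405193-154469450, plus strand), the alpha receptor of IL-6, was low throughout and no difference after MmC was detected. It had 5.35, 5.20, 5.15 and 6.2 CPM in MmC-/GDF11-, 4.54, 5.58, 5.21 and 7.09 CPM in MmC+/GDF11-, 4.43, 5.38, 4.55 and 5.38 CPM in MmC-/GDF11+ and 4.58, 5.62, 5.44 and 6.23 CPM in MmC+/GDF11+. All groups overlapped. Its log2 fold changes were 0.03 ± 0.141 (adjusted p = 0.866) without and 0.15 ± 0.141 (adjusted p = 0.412) with GDF11.

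SOCS3 (ENSG00000184557.4, chr17:78356778-78360077, minus strand), the inhibitor that STAT3 induces, was lower after MmC. It had 75.4, 84.9, 63.9 and 101 CPM in MmC-/GDF11- and 40.3, 58.4, 52.2 and 57.1 CPM in MmC+/GDF11-. With GDF11 it had 61.5, 91.7, 66.3 and 91.1 CPM in young and 39.7, 55.9, 48.5 and 58.8 CPM in senescent MSCs. The groups did not overlap in either comparison, and the lowest senescent library was replicate 1. Its log2 fold change was -0.64 ± 0.173 (adjusted p = 0.00642) without and -0.61 ± 0.173 (adjusted p = 0.00828) with GDF11, and it remained called whichever single library was left out.

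**Figure D2:**
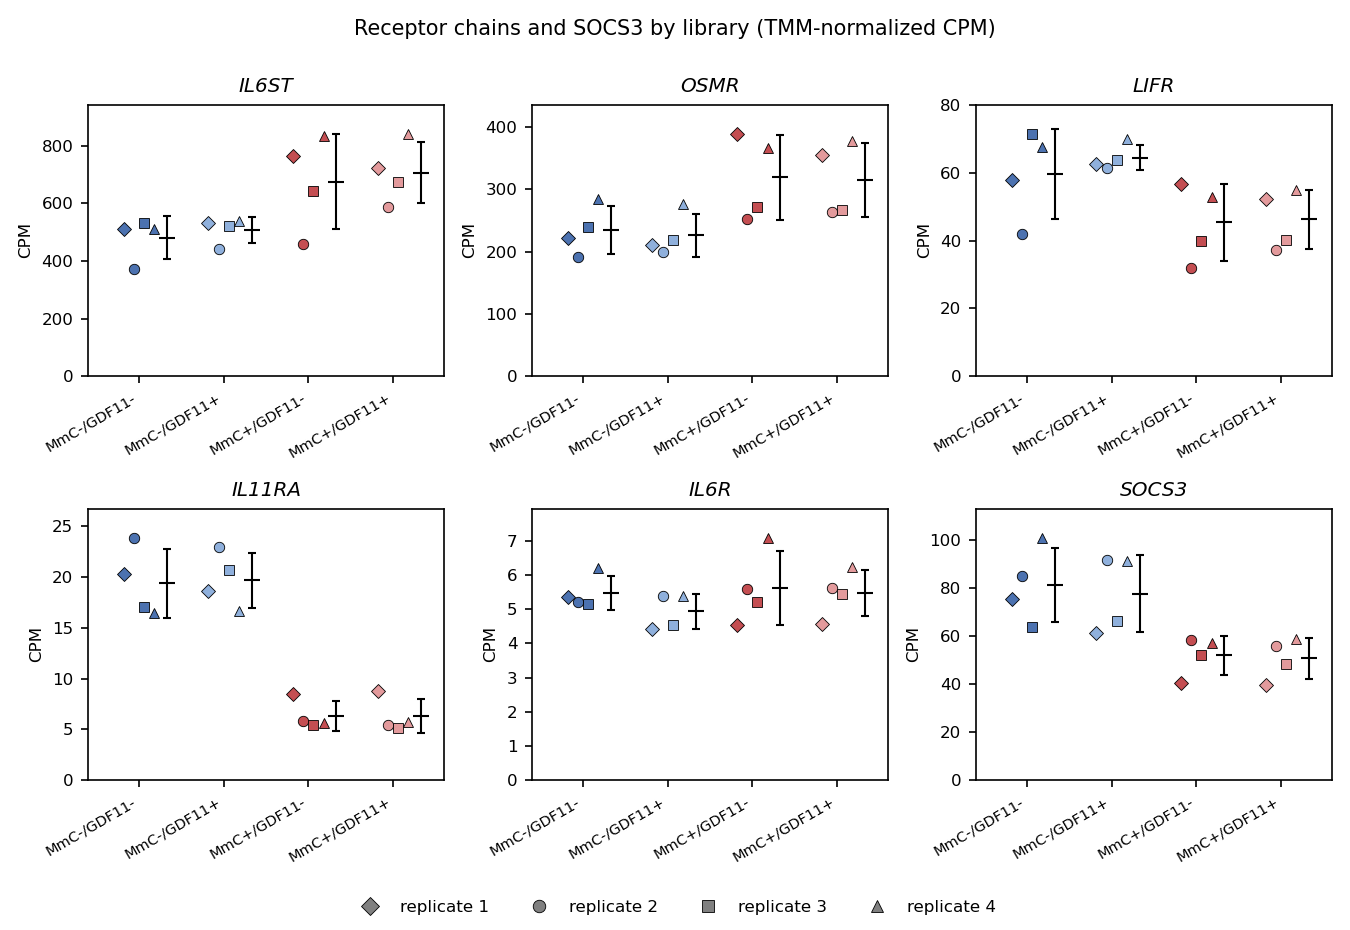
CPM of the 5 receptor genes and SOCS3 in each of the 16 libraries on linear axes from 0, with 1 marker shape per replicate number and the mean ± SD of each group beside its points. IL11RA and SOCS3 show no overlap between young and senescent libraries, and IL6R lies between 4.43 and 7.09 CPM in all groups.

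Per kilobase, the receptor RNAs of MmC-/GDF11- were in the order IL6ST, OSMR at 32.7 ± 5.36, LIFR at 4.92 ± 1.09, IL11RA at 3.70 ± 0.649 and IL6R at 0.783 ± 0.0701 CPM per kilobase. The spreads of IL6ST and OSMR, and those of LIFR and IL11RA, overlapped. Within each library of this group, though, IL6ST lay above OSMR, while LIFR lay below IL11RA in replicate 2 and above it in the others. In MmC+/GDF11- the order stayed as it was, with IL6ST at 55.9 ± 13.7, OSMR at 44.5 ± 9.51, LIFR at 3.73 ± 0.940, IL11RA at 1.21 ± 0.276 and IL6R at 0.802 ± 0.154 CPM per kilobase. LIFR and IL11RA, which had overlapped before, were then apart, while IL11RA had come close to IL6R. The order of the receptors likewise rests on all annotated exon bases, and the counts of IL11RA have the limit given above.

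The balance of each signalling chain to gp130 was taken within each library, as a percentage of IL6ST on the scale of CPM per kilobase. LIFR had 11.3, 11.2, 13.4 and 13.2% in MmC-/GDF11- and 7.38, 6.95, 6.17 and 6.29% in MmC+/GDF11-, and 11.7, 13.8, 12.1 and 12.9% against 7.21, 6.31, 5.93 and 6.48% with GDF11. The young and senescent libraries did not overlap in either comparison. The log2 difference was -0.87 ± 0.0928 (SE) without and -0.96 ± 0.0793 with GDF11, each with a two-sided exact permutation p of 0.0286, the smallest that 4 against 4 libraries allow, and 0.172 after adjustment over the 12 ratio tests. OSMR had 82.5 ± 9.45% (SD) in MmC-/GDF11- and 80.7 ± 10.2% in MmC+/GDF11-, a log2 difference of -0.03 ± 0.123. IL6R had 2.00 ± 0.327% and 1.50 ± 0.449%, a log2 difference of -0.45 ± 0.242 with an exact permutation p of 0.143.

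**Figure D3:**
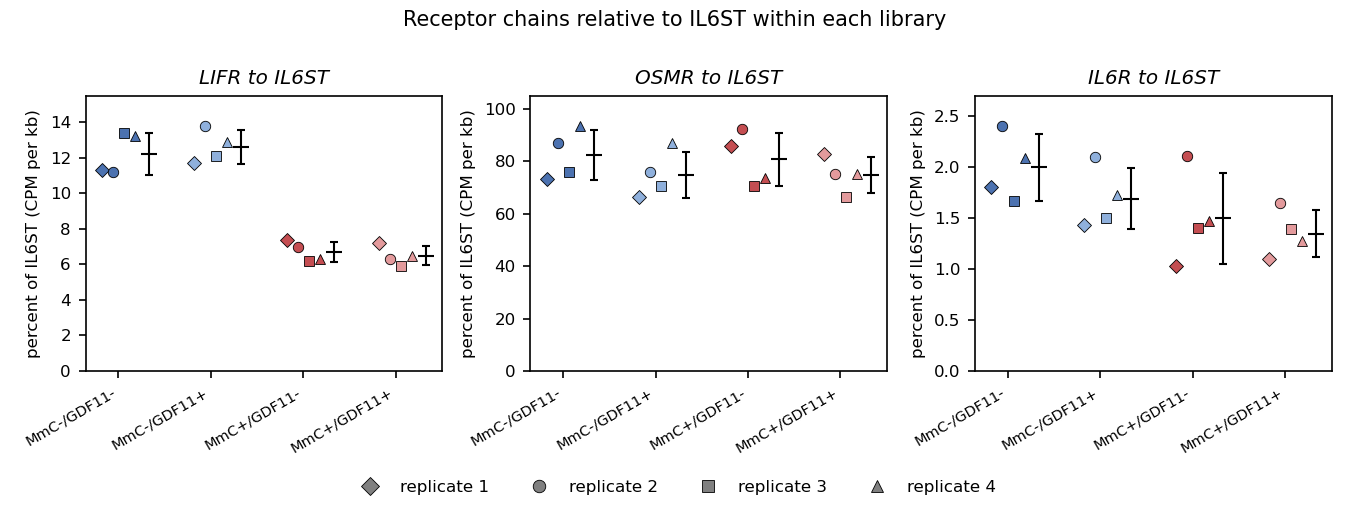
LIFR, OSMR and IL6R as a percentage of IL6ST (CPM per kilobase of exon) in each of the 16 libraries, on axes from 0, with the mean ± SD of each group. The LIFR share lies between 11.2 and 13.8% in young and between 5.93 and 7.38% in senescent libraries, while the OSMR shares overlap.

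Of the 10 members, 6 were higher (IL6, LIF, IL11, CLCF1, IL6ST and OSMR), 2 lower (IL11RA and SOCS3) and 2 not called after MmC without GDF11, at an adjusted p of 0.05 in edgeR's quasi-likelihood test. Over all genes tested 45.3% were called, 22.9% higher and 22.4% lower. With GDF11, 6 were higher, 3 lower (LIFR in addition) and 1, IL6R, was not called, where 46.7% of all genes were called, 23.4% higher and 23.3% lower. The young and senescent libraries did not overlap in 5 members without GDF11 (37.3% of all genes) and in 7 with GDF11 (41.5% of all genes). The median log2 fold change of the members was 0.47 without and 0.48 with GDF11, beside -0.01 over all genes in both. With replicate 1 of every group left out, 7 members were called in each comparison, 4 higher and 3 lower. Over all genes the number called then rose, from 8655 to 10004 without GDF11 and from 8926 to 10164 with GDF11. The number of members called without GDF11 fell to 5 when replicate 4 of MmC+/GDF11- was left out (7734 of all genes called). The number with GDF11 fell to 5 when replicate 2 of MmC-/GDF11+ was (7820 of all genes called). In bulk RNA, more or fewer cells that express a gene cannot be told apart from more or less RNA per cell.

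The libraries of replicate 1 stood out in the senescent groups. Among its limitations the paper names batch effects from technical issues, without saying which libraries they touched. Whether they account for replicate 1 was not tested. In MmC+/GDF11- replicate 1 lay below the other 3 libraries in 6 of the members (the 4 cytokines, IL6R and SOCS3), above them in 3 (LIFR, OSMR and IL11RA) and within them in IL6ST. In MmC+/GDF11+ it lay below them in the same 6 and above them in IL11RA alone. Over all genes tested, replicate 1 was the lowest library in 35.2% and 36.9% of genes in these groups, and the highest in 35.1% and 37.3%. The deviation was large in a smaller share: under 1/2 of the lowest other library in 5.5% and 5.79% of all genes, which included IL6, LIF and IL11 in both groups.

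The effect of GDF11 itself was compared within young and within senescent MSCs. In young MSCs 0 of 10 members were called by edgeR's quasi-likelihood test, 0 had an unadjusted p under 0.05 and 0 had groups that did not overlap, beside 0% called, 226 genes at an unadjusted p under 0.05 and 0.89% of genes without overlap over all genes. The log2 fold changes lay between -0.15 (IL6R, SE 0.142) and 0.11 (LIFR, SE 0.185). In senescent MSCs 0 of 10 were called, 0 had an unadjusted p under 0.05 and 0 did not overlap, beside 0% called, 96 genes at an unadjusted p under 0.05 and 0.503% without overlap over all genes. Their log2 fold changes lay between -0.42 (IL11, SE 0.815) and 0.07 (IL6ST, SE 0.169). DESeq2 and limma-voom also called 0 members in both. The errors were unequal among the members. For CLCF1, the receptor genes and SOCS3 the SE of the log2 difference was at most 0.243 in both comparisons. It was 0.574 in young and 0.544 in senescent MSCs for IL6, 0.611 and 0.584 for LIF, and 0.943 and 0.815 for IL11. These errors are from the fit without pairing. In both comparisons chance alone would give far more of the 19103 genes an unadjusted p under 0.05 than were found. The test was thus conservative here, and the absence of calls does not show an absence of effect. Same-numbered senescent libraries deviated together (r from 0.448 to 0.818), and this fit leaves such shared variation in the error. With the replicate number as a block 0 members were called in both comparisons. The log2 differences of IL11 within replicates 1 to 4 of the senescent cells were -0.02, -1.01, 0.13 and -0.23.

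The interaction asks whether the response to MmC differed with and without GDF11. It was called for 0 of 10 members by edgeR's quasi-likelihood test, with 0 at an unadjusted p under 0.05, beside 0% of all genes called and 172 at an unadjusted p under 0.05. DESeq2 and limma-voom called 0 as well. The 172 genes are again far fewer than chance alone would give among 19103 genes. The edgeR test was thus conservative here too, and the absence of calls does not show that the responses were equal. The interaction terms lay between -0.28 (IL11) and 0.11 (IL6R) on the log2 scale, with a lowest unadjusted p of 0.573. The comparisons with and without GDF11 use different libraries, but share 1 estimate of the spread.

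**Figure D4:**
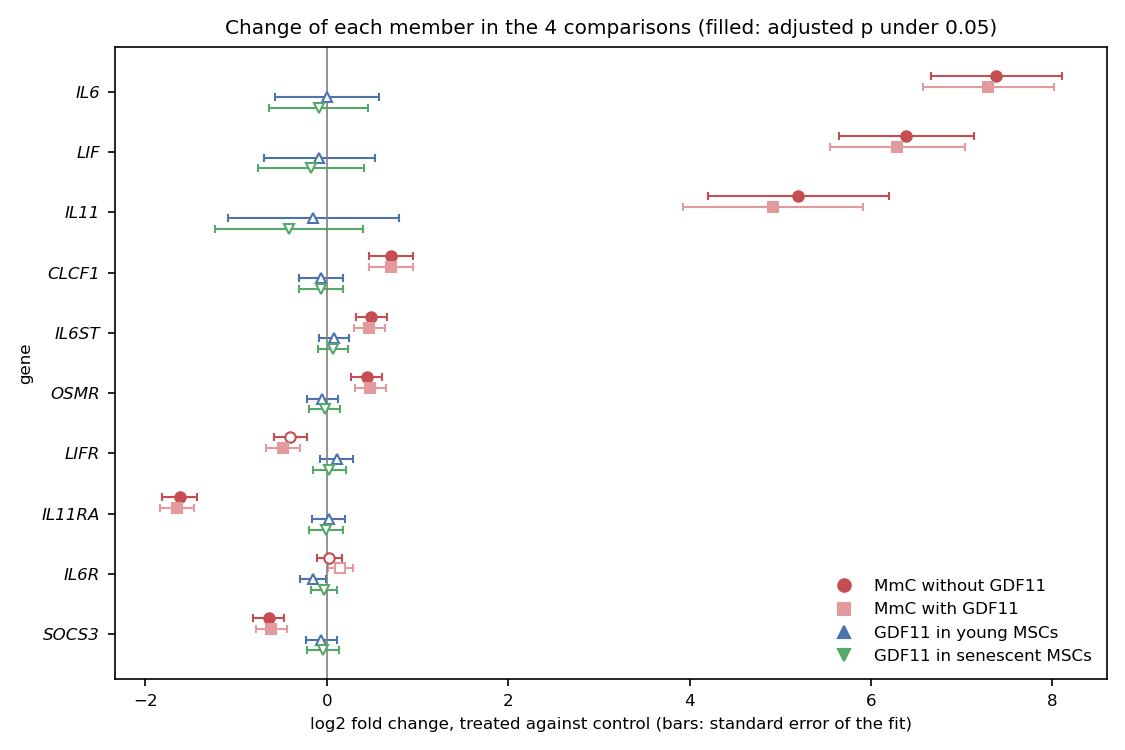
Log2 fold changes of the 10 members with their standard errors in the 4 comparisons, MmC without and with GDF11 and GDF11 in young and senescent MSCs, filled where the adjusted p is under 0.05. IL6, LIF and IL11 lie between 4.92 and 7.38 after MmC, and all GDF11 points are open and lie between -0.42 and 0.11.

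Beyond the members, 53 other genes of the pathway were taken in 6 lists, of which 46 were tested. After MmC without GDF11, 14 were higher, 3 lower and 29 not called (median log2 fold change 0.19), and with GDF11 14 were higher, 2 lower and 30 not called (median 0.19). Both shares, 17 and 16 of 46, were below the share called among all genes. Not tested for low counts were OSM, IL27, IL31, CNTFR, PTPN6, SERPINA3 and FGG, which had between 1 and 101 reads summed over all libraries. OSM, the ligand of OSMR, had 17 reads in all, and CNTFR, the receptor through which CLCF1 acts, had 40.

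Of the other family cytokines, 1 of 3 tested was higher. EBI3, a subunit of IL-27 and IL-35, rose from 0.595 ± 0.160 to 3.99 ± 1.80 CPM (log2 fold change 2.74 ± 0.378, adjusted p = 3.54e-05) and by 2.71 ± 0.380 with GDF11 (4.08e-05). Of the other family receptors, IL27RA and IL31RA were not called in either comparison, at 0.936 ± 0.198 and 0.359 ± 0.0540 CPM in MmC-/GDF11-. The sheddases ADAM10 and ADAM17, proteases that release the IL-6 receptor from the membrane, had log2 fold changes of 0.25 ± 0.142 and 0.26 ± 0.113 without GDF11 and neither was called (adjusted p = 0.169 and 0.0744).

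Of the signal transducers, the kinases JAK1 and JAK2 were not called, at 381 ± 29.9 and 360 ± 41.1 CPM for JAK1 and 18.5 ± 4.20 and 15.5 ± 3.4 CPM for JAK2 without and with MmC. STAT3, the main transcription factor of the pathway, was not called either, at 185 ± 14.3 and 180 ± 38.9 CPM (log2 fold change -0.04 ± 0.137, adjusted p = 0.838). The kinase TYK2 was lower (-0.28 ± 0.0842, adjusted p = 0.0118). PTPN11, the phosphatase SHP2 that docks on gp130, was higher by 0.43 ± 0.114 (adjusted p = 0.00564). With GDF11 the log2 fold changes were -0.37 for TYK2 and 0.33 for PTPN11, both called.

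Among 11 tested negative regulators other than SOCS3, 1 was higher and 1 lower in both comparisons. CISH, a relative of SOCS3 that STAT5 induces, fell from 2.98 ± 0.420 to 1.74 ± 0.157 CPM (-0.78 ± 0.149, adjusted p = 0.000556), and SOCS4 rose from 22.6 ± 2.94 to 37.8 ± 4.57 CPM (0.74 ± 0.126, adjusted p = 0.000203). SOCS1, which also inhibits Janus kinases, had 1.33 ± 0.243 and 1.77 ± 0.635 CPM and was not called (adjusted p = 0.247).

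Of the STAT3 target genes, 17 of 19 were tested, of which 9 were higher, 1 lower and 7 not called without GDF11 (median log2 fold change 0.53), and 10 higher and 7 not called with GDF11 (median 0.70). Over all genes 22.9% were higher and 22.4% lower without GDF11, and 23.4% and 23.3% with GDF11. The highest without GDF11 were LBP, the lipopolysaccharide-binding protein, from 0.0866 ± 0.0523 to 0.865 ± 0.342 CPM (3.34 ± 0.419, adjusted p = 1.35e-05), and CCND1, cyclin D1, from 300 ± 19.7 to 1250 ± 250 CPM (2.06 ± 0.154, adjusted p = 1.09e-07). BCL3, an atypical member of the IkappaB family, was the only one lower (-0.29 ± 0.107, adjusted p = 0.0376). The other 7 that rose without GDF11 were TIMP1, VEGFA, BCL2L1, IL4R, BCL6, MCL1 and CEBPD, by 1.48 down to 0.43 on the log2 scale. Many of these genes also answer to other transcription factors. SOCS3, which is itself a STAT3 target, was lower in the same libraries, as given above. The 7 not called without GDF11 ran from CEBPB (0.53 ± 0.262) down to PIM3 (-0.03 ± 0.144). CEBPB was called with GDF11 (0.71 ± 0.263, adjusted p = 0.0365). The part of STAT3 in these differences was not tested.

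**Figure D5:**
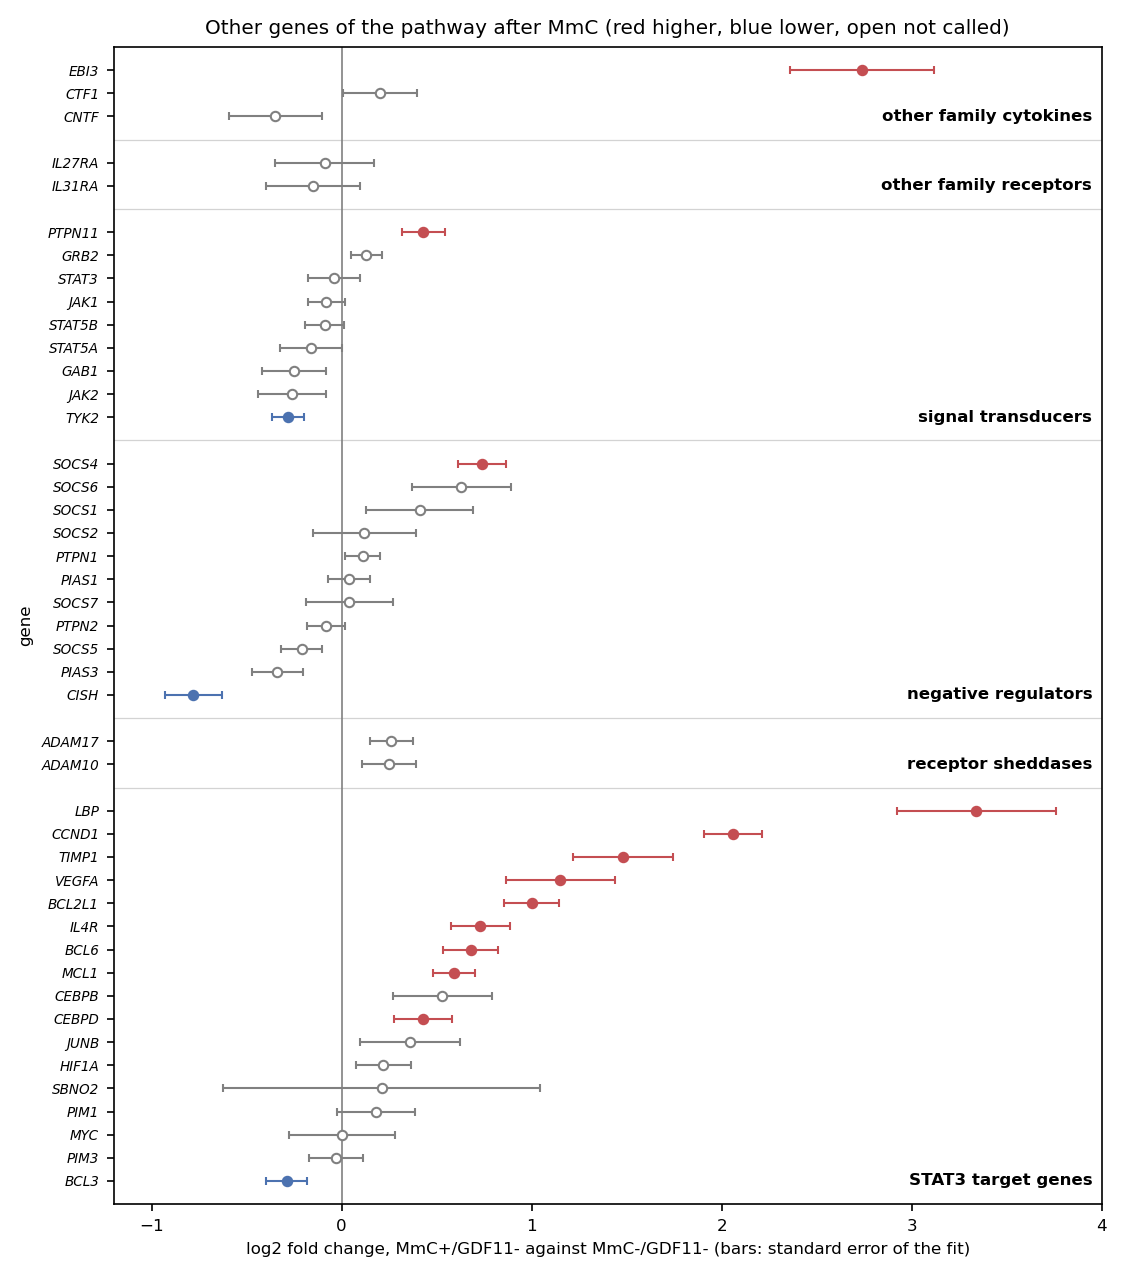
Log2 fold changes with standard errors of the genes of the 6 pathway lists that are reported here, after MmC without GDF11, red where higher, blue where lower and open where not called at an adjusted p of 0.05. The called genes include 10 STAT3 targets, and the widest error shown is that of SBNO2.

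The genes whose profile over the 16 libraries was nearest to a cytokine's were found among 10968 protein-coding genes, by the root mean square (RMS) difference of log2 CPM after centring each gene. Nearest to IL6 were the neutrophil chemokine CXCL5 (RMS 0.492), the chemokine CXCL8 (0.543), the hyaluronan synthase HAS1 (0.651), the chemokine CXCL3 (0.659) and the metalloproteinase MMP3 (0.664). Nearest to LIF were TFPI2, a serine protease inhibitor (0.388), PTGS2, cyclooxygenase-2 (0.467), CXCL3 (0.5), MMP3 (0.530) and AREG, a ligand of the epidermal growth factor receptor (0.532). Nearest to IL11 were the orphan nuclear receptor NR4A1 (0.513), IL1RN, the interleukin-1 receptor antagonist (0.655), NR4A2 (0.674), NR4A3 (0.782) and CSGALNACT1, an enzyme of chondroitin sulfate synthesis (0.782). In all of them replicate 1 was the lowest library of MmC+/GDF11-, which comes with choosing them by likeness over the same libraries. NR4A1, for example, had 5.97 CPM in replicate 1 and between 87.9 and 102 CPM in the other 3 libraries of that group.

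Several annotated genes overlap the exons of members. The antisense RNA IL6-AS1, which shares 428 bases with IL6, had 0.0432 ± 0.0246 CPM in MmC-/GDF11- and 0.766 ± 0.236 CPM in MmC+/GDF11- (log2 fold change 4.06, adjusted p = 2.53e-06). LIF-AS2 had 0.0502 ± 0.0361 and 0.431 ± 0.101 CPM (3.05, adjusted p = 0.000465), and LIF-AS1 stayed at or under 0.117 CPM. LIFR-AS1 had 1.60 ± 0.138 and 1.24 ± 0.133 CPM (-0.37, adjusted p = 0.0421), the direction of LIFR. STEAP1B, which shares 46 bases with IL6, went from 2.53 ± 0.406 to 5.53 ± 1.77 CPM (1.13, adjusted p = 0.00169). RICTOR, opposite to OSMR, was not called (0.0591), CCL27 had 0 counts, and ENSG00000256514 and ENSG00000262211 stayed at or under 0.131 CPM beside CLCF1 and IL6ST. The library kit keeps the strand, but the strand setting of the counting is not given in the sources used here, and without it reads of a gene and of its antisense partner cannot be told apart.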

How the data were processed

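Counts per gene were deposited as raw values. Per the submitters' processing notes and the paper's methods, the authors aligned reads to hg38 with HISAT2 2.2.1 and made the counts with featureCounts 2.0.1 on GENCODE release 38. Strand setting, pair handling and multi-mapped reads are not given in the sources used here, nor is a test for differential expression. The members and lists were chosen with earlier results of these data known. The filterByExpr defaults of edgeR 4.0.16 (R 4.3.3; minimum count 10, minimum total 15) selected the genes, libraries were TMM-scaled, and a robust quasi-likelihood model of all 16 libraries had 1 mean per group, with Benjamini-Hochberg adjustment over 19103 genes at 0.05. All adjusted p-values are from this test unless DESeq2 1.42.0 or limma 3.58.1 is named. The standard errors of its log2 fold changes were derived from it, as the absolute change divided by the square root of the F statistic. The steps were tested on simulated data. If replicates of a group were not separate cultures, p-values measure only the spread between these samples.

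Ratios of members used log2 CPM with a prior count of 2 and a two-sided exact permutation test. Named genes are the members, JAK1, JAK2, TYK2 and STAT3, the 2 highest and 2 lowest called genes of each list after MmC without GDF11, genes overlapping a member's exons, and the 5 protein-coding genes with a mean log2 CPM of at least 1 nearest in profile to IL6, IL11 and LIF. Other named list genes, markers and VARS1 were added with their values known. Some list genes that the rule takes are counted but not reported here. The paper does not say that replicate numbers pair libraries. Deviations of same-numbered libraries from their group means were positively correlated across genes in every comparison, to unequal degrees. For MmC without GDF11 r lay between 0.113 and 0.368, and with GDF11 between 0.0293 and 0.311. For GDF11 it lay between 0.0982 and 0.504 in young and between 0.448 and 0.818 in senescent MSCs. The reported tests pair no libraries, and only the replicate block among the alternatives does. Positions came from GENCODE release 44, in which 186 identifiers had no match, and promoters from RefSeq GRCh38.p14. Alternatives were RLE scaling, no low-count filter, only the libraries compared, a replicate block, limma-voom, DESeq2, leaving out each library in turn, and leaving out replicate 1 of every group.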

Additional observations from a re-analysis of the deposited data

Results flagged for a closer look

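In 6 of the 40 sets of 4 libraries (10 members in 4 groups) the highest or lowest library stood further from the others than Dixon's 95% limit allows, where chance alone gives about 1 in 20. Of these, 4 concerned replicate 1 of the senescent cells. In MmC+/GDF11- replicate 1, LIF had 57.8 CPM where the others had 515 to 580, and CLCF1 had 10.7 CPM where the others had 20.5 to 22.2. IL11RA was high in replicate 1, at 8.5 CPM in MmC+/GDF11- against 5.44 to 5.79 in the others, and at 8.82 CPM in MmC+/GDF11+ against 5.18 to 5.71. The other 2 were IL6ST in replicate 2 of the young cells, at 372 CPM in MmC-/GDF11- against 510 to 531 and at 442 CPM in MmC-/GDF11+ against 522 to 537. IL6 and IL11, whose replicate 1 libraries were also the lowest senescent ones, stayed within the limit. The cause was not tested.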

How the results depend on the processing

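With single libraries left out, 5 to 8 members were called after MmC without GDF11 and 5 to 9 with GDF11, beside 7602 to 9159 and 7742 to 9405 of all genes. All genes called for GDF11 in young MSCs numbered 0 to 1 in this way, and 1 under DESeq2, and both times the gene was VARS1, which is no member. The other alternatives kept the counts of members and of pathway genes within 1.5 times the reported ones. Some small differences changed sign when 1 library was left out. The log2 fold change then ranged from -0.91 to 0.23 for IL11 and from -0.08 to 0.19 for IL6ST (GDF11 in senescent MSCs), from -0.03 to 0.21 for LIFR (GDF11 in young MSCs), from -0.09 to 0.13 for IL6R (MmC without GDF11), and from -0.76 to 0.38 for the interaction of IL11. The cause was not tested. IL6, LIF, IL11, IL11RA and SOCS3 kept direction and call after MmC under all alternatives run. With the replicate number as a block, which pairs libraries, 9 members were called after MmC without GDF11 (LIFR in addition, adjusted p = 0.0129) and 9 with GDF11, and it changed no other call among the members. Single-library calls of CLCF1, IL6ST, OSMR and LIFR are given beside each gene. Low counts limit IL11 in young MSCs.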
